A study of Mus musculus with 2 samples.

Results

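Granulocyte-like cells made up 241 of 7948 mouse thymus cells that had been sorted as early T-cell progenitors (3.03%, 95% exact binomial interval 2.67 to 3.43%). A cell was counted among them when at least 7 of 14 myeloid genes (Mpo, Elane, Prtn3, Ctsg, Cebpa, Cebpe, Csf1r, Csf3r, Lyz2, S100a8, S100a9, Ms4a3, Fcgr3 and Cd68) each had at least 1 UMI. A UMI, or unique molecular identifier, stands for 1 captured RNA molecule. The cells came from C57BL/6 mice carrying the Bcl11byfp/yfp reporter genotype, in which a yellow fluorescent protein reports Bcl11b, a transcription factor switched on as thymocytes commit to the T lineage. Every sort, the control included, took live (7AAD-) cells that lacked lineage markers (Lin-) and carried Kit. The control had no further gate, and its label describes it as spanning the early progenitor and the DN2 stage. The 4 other sorts were also negative for CD25 and for the Bcl11b reporter, and were split by Flt3, Ly6d and HSA (heat stable antigen, CD24) into Flt3- Ly6d- HSA-, Flt3- Ly6d+, Flt3+ HSA+ and Flt3+ Ly6d- HSA- cells. There was 1 sort of each kind, tagged with its own antibody hashtag and pooled into 1 Chromium 3' v3 library. The labels give neither the age nor the number of the mice. Cells of 1 sort are not replicates, so no difference was tested, and intervals cover counting error only.

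Granulocytes arise from granulocyte and monocyte progenitors, which need C/EBP-alpha and PU.1. At the promyelocyte stage the cells fill primary (azurophil) granules with myeloperoxidase and the serine proteases neutrophil elastase, proteinase 3 and cathepsin G. C/EBP-epsilon and Gfi1 then drive the change to secondary and tertiary granule genes, such as lactoferrin, cathelicidin and lipocalin-2, while Irf8 favours the monocyte branch. S100a8 and S100a9, the subunits of calprotectin, accumulate in maturing neutrophils. The earliest thymic progenitors are known to keep some myeloid potential in culture, which Notch signalling and the T-lineage factors restrict.

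These start sites are shown because Elane, Prtn3, Mpo and Ctsg belong to the granule list that orders the cells further on, and because S100a8 RNA was found at the end of that order. Elane (chr10:79886062-79886361, + strand) and Prtn3 (chr10:79879417-79879716, + strand) code for neutrophil elastase and proteinase 3 and are neighbours. Mpo (chr11:87793534-87793833, + strand) codes for myeloperoxidase, Ctsg (chr14:56102525-56102824, - strand) for cathepsin G, and S100a8 (chr3:90668821-90669120, + strand) for a calprotectin subunit. Each run holds the 250 bases before the RefSeq start and the 50 from it, in GRCm38.p6, 5′ to 3′ on the gene's own strand. Capitals mark the 6 letters AGGAAG on either strand, the core of many PU.1 sites.
Elane: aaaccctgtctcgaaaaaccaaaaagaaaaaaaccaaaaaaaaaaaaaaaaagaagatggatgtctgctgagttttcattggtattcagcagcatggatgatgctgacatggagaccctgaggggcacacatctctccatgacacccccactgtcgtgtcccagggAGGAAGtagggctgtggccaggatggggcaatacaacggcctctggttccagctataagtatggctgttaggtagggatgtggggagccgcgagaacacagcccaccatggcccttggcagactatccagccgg
Prtn3: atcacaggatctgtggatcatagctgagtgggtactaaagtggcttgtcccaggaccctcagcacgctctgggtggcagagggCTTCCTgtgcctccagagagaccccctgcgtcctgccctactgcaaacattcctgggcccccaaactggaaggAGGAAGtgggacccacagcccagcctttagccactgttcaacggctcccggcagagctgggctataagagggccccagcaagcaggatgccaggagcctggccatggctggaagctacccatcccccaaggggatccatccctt
Mpo: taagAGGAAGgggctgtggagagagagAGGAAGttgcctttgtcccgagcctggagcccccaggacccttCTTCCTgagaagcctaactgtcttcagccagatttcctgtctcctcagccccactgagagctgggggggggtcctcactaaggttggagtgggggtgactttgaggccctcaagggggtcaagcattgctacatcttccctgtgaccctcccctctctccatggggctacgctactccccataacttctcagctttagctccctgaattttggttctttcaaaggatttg
Ctsg: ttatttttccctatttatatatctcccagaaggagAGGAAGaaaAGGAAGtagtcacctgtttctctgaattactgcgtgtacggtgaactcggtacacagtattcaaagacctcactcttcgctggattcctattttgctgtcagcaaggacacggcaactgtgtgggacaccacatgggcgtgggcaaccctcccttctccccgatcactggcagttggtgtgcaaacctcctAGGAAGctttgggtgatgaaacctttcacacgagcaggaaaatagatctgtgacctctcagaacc
S100a8: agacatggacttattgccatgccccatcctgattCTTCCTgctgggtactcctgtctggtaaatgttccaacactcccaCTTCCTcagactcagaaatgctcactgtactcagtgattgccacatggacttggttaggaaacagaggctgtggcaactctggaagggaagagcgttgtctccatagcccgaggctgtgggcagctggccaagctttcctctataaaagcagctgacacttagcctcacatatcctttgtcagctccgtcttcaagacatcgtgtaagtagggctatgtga
The letters AGGAAG occurred in 35.4% of all 32851 RefSeq promoters of this length, in 7 of 8 promoters found for the primary granule list and in 9 of 12 for the secondary and tertiary granule list. The C/EBP-type letters TTGCNNAA, searched on both strands, were in 10.8% of all promoters, in 0 of the 8 primary granule promoters, in 6 of the 12 secondary and tertiary granule promoters, and in none of the 5 shown. A match describes letters only, and 1 library of RNA does not measure binding.

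The 241 cells lay unevenly over the sorts. The control held 44 of 3302 cells (1.33%, 0.970 to 1.78%), Flt3- Ly6d- HSA- 102 of 1205 (8.46%, 6.95 to 10.2%), Flt3- Ly6d+ 1 of 847 (0.118%, 0.00299 to 0.656%), Flt3+ HSA+ 27 of 1182 (2.28%, 1.51 to 3.31%) and Flt3+ Ly6d- HSA- 67 of 1412 (4.75%, 3.70 to 5.99%). The share was thus highest in the sort with neither Flt3 nor HSA, and a single cell stood for the Ly6d+ sort. These cells were deep: their median was 34315 UMIs (4475 to 90423) and 5212 genes, against 14377 UMIs and 3621 genes in the other 7707 cells. With every cell thinned to 3000 UMIs, 105 cells met the rule. Thinning only removes UMIs, so all 105 had to be among the 241. The gap between Flt3+ Ly6d- HSA- and Flt3+ HSA+ was not kept when thinned. The Flt3+ Ly6d- HSA- share was then 1.57%, and the Flt3+ HSA+ share stayed within its interval above.

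The rule's threshold fell in a thin part of the distribution. There were 18 cells just inside it, with 7 genes; the 14 genes took a median of 0.523% of their UMIs. Just outside it were 30 cells with 6 genes, at a median of 0.202%. The median was 2.19% over the 241 cells and 0.0328% over the other cells. The single Ly6d+ cell was one of the 18, with 8 Mpo UMIs, 1 each of Prtn3 and Ctsg, none of Elane, Ms4a3 or Cebpe, and 10 UMIs of Dntt, the lymphoid enzyme terminal transferase. It is therefore left out of the values per sort given from here on.

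The label was checked on 6 markers, all of them among the 14 selection genes, so their levels describe the choice and are no test of it. At 3000 UMIs per cell, Elane was found in 84.2% of the 241 cells (79.0 to 88.6%) and in 0.554% of the other cells. Prtn3 was found in 99.2% and 1.87%, Ctsg in 99.2% and 6.45%, Ms4a3, a membrane protein of granulocyte and monocyte progenitors, in 73.9% and 0.211%, and Cebpe in 27.0% and 0.132%. Mpo was found in 98.8% and 44.2%. Mpo and Elane stood at 7243 and 6032 CPM (UMIs summed over cells and scaled to 1e+06) in the granulocyte-like cells, a ratio of 1.20, but at 239 and 2.49 CPM in the other cells, a ratio of 96.0. Cells with both genes and more of the 14 were taken out of the other cells by the rule, so nothing is read from these ratios.

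**Figure D1:**
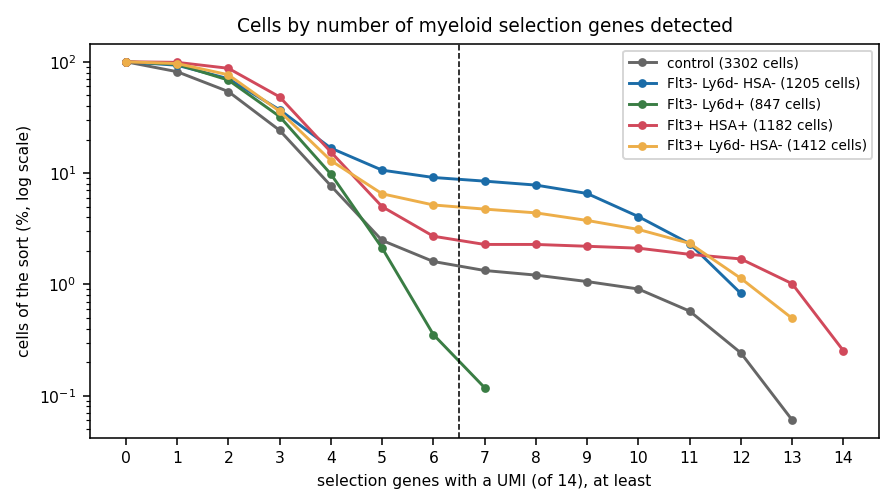
Percent of the cells of each sort (y axis, log scale) with a UMI for at least the number of selection genes on the x axis. The dashed line marks the threshold of 7; to its right the Flt3- Ly6d- HSA- curve lies highest at first (8.46%) and the Flt3- Ly6d+ curve ends at once (0.118%).

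Lists of other cell types were read in the same cells. The T-cell receptor and signalling list summed to 45.2 CPM in granulocyte-like cells (23.0 to 94.6 over the sorts) and to 1535 CPM in the other cells (1207 to 1838), and the T-lineage regulators to 46.3 against 685 CPM, with Lef1 at 0 UMIs in the granulocyte-like cells. Macrophage genes stood at 8.28 CPM, against 1.004 CPM in the other cells, with C1qa, C1qb, C1qc, Cd5l and Mertk at 0, and eosinophil genes at 2.22 against 1.48 CPM with Epx, Ear1, Ear2, Ear6 and Ccr3 at 0. Mast cell and basophil genes reached 304 against 235 CPM, although Cma1, Tpsb2 and Fcer1a, which define the mature cells, were at 0. Dendritic genes were at 195 against 345 CPM, B-cell genes at 53.7 against 48.5 CPM, NK and innate lymphoid genes at 14.7 against 47.0 CPM, and erythroid genes at 43.7 against 492 CPM. Doublets were not called. Of the 241 cells 9 had 2 or more T-cell receptor list UMIs per 10000, against 7560 of the 7707 other cells, and the assigned hashtag held at least 91.7% of the hashtag counts in every granulocyte-like cell.

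Granulocyte-like cells were set against the other cells of their own sort. Of 5415 genes with at least 20 CPM in 1 of the 2 kinds of cell in every one of the 4 sorts that held 20 or more of these cells, 203 were at least 2-fold higher in all 4 (3.75%) and 350 at least 2-fold lower (6.46%). The rule used this contrast, so nothing is read from these counts. The median log2 ratio of all tested genes was -0.03, and it was 0.12 with DESeq2 size factors and 0.08 with TMM factors.

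Outside the 14 genes, Hp, which codes for the granule protein haptoglobin, was at 244, 187, 609 and 301 CPM in granulocyte-like cells of the control, Flt3- Ly6d- HSA-, Flt3+ HSA+ and Flt3+ Ly6d- HSA- sorts, against 0.198, 0, 0.453 and 0.227 CPM in the other cells. The values did not come near each other in any sort: the ratio was at least 696 in Flt3- Ly6d- HSA-, with the 0 set at 3 counts, and 1232 to 1344 in the other 3. Ly6c2, a surface antigen of monocytes and neutrophil precursors, was 429-fold to 1127-fold higher, C3, complement component 3, 238-fold to 772-fold, and Hk3, a myeloid hexokinase, 186-fold to 618-fold. For genes with a sort at 0 among the other cells, the ratio over all 5 sorts was 617 for Slpi (405 to 989), an inhibitor of elastase and cathepsin G, and 1378 for Trem3 (767 to 2769.8), a myeloid activating receptor. It was 2265 for Igsf6 (1228 to 4733), an immunoglobulin-type receptor, and 2419 for the claudin Cldn15 (940.4 to 8904), which had 4 UMIs in the other cells. Cybb, the catalytic subunit of the NADPH oxidase, was 97.5-fold to 408-fold higher. Dmkn (316), Mrgpra2b (112), Anxa3 (93.3), Mtus1 (74.9), Clec5a (56.7) and Tfec (39.6) completed the 15 with the largest ratio, here as the smallest fold higher over the sorts. Ly6c2 and Mrgpra2b have near-identical copies among which the counting could split reads.

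The lists below come from the same contrast, so their counts are descriptions too, beside 3.75% of all genes higher and 6.46% lower. Of 10 tested genes of the endoplasmic reticulum list, 9 were at least 2-fold higher in all 4 sorts and none is a selection gene, with a list median log2 ratio of 2.17 against -0.03 over all genes. Fkbp11, a folding enzyme of secretory cells, was 29.6-fold to 38.9-fold higher, the chaperone Sdf2l1 8.97-fold to 12.4-fold, calreticulin (Calr) 5.82-fold to 6.85-fold and the chaperone Hspa5 3.87-fold to 5.21-fold. In each case the 4 sorts gave similar ratios. Of 8 monocyte genes 6 were higher, of 9 myeloid regulators 4 (Cebpa, Cebpb, Cebpe and Irf8), of 6 colony stimulating factor receptors Csf3r and Csf2rb, and of 6 oxidase genes Cybb and Ncf4. Among these, Fcgr3, Cebpa, Cebpe and Csf3r are selection genes, which the rule made high. All 4 tested T-lineage regulators (Tcf7, Tox, Notch1 and Hes1) and all 4 T-cell receptor list genes (Lck, Lat, Cd7 and Dntt) were at least 2-fold lower. Tox, a factor of T-cell commitment, was 56.2-fold to 298-fold lower and Hes1, a Notch target, 17.6-fold to 141-fold lower. The lymphoid cytokine gene Ltb was 20.3-fold to 37.1-fold lower and Mycn 16.3-fold to 143-fold lower. Of 13 stem and progenitor genes 8 were lower and Lmo2, a haematopoietic adaptor protein, was 2.33-fold to 7.43-fold higher. S phase genes (0 of 20 called, median 0.33), G2/M genes (0 of 17, median 0.07) and growth genes (0 of 14) did not separate the cells by this size rule.

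The stages of the 241 cells were ordered by the share of their UMIs in the primary granule list (Mpo, Elane, Prtn3, Ctsg, Prss57, Ctsc, Nkg7, Srgn, Serpinb1a and Cd63), and they were cut into 4 bins of 61, 60, 60 and 60 cells. From bin 1, the lowest, to bin 4, the bins had medians of 90.4, 176, 283 and 469 primary granule UMIs per 10000 and ran from 15.8 to 120, from 121 to 229, from 230 to 341 and from 348 to 778. Depth moved with this order: the median UMIs per cell were 26510, 28738.5, 39490.0 and 43965, and its part in what follows was not tested. Mpo, Elane, Prtn3 and Ctsg are selection genes as well as ordering genes. Bins are ranges of 1 measure, not types.

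Bin 1, the lowest in granule RNA, carried progenitor RNA. Cd34, a surface protein of haematopoietic progenitors, stood at 335, 234, 133 and 51.5 CPM in bins 1 to 4, and the progenitor factor Sox4 at 282, 172, 105 and 56.9 CPM. Flt3, the receptor of early multipotent progenitors, stood at 19.4, 6.15, 3.24 and 0 CPM. Cpa3, mast cell carboxypeptidase A, which early progenitors also express, stood at 366, 187, 90.0 and 29.0 CPM. All 4 genes were thus highest where granule RNA was lowest. Thinned to 3000 UMIs, the stem list and the primary granule list had a rank correlation of -0.37 over the 241 cells, which share 1 library.

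Granule and maturation genes ran the other way, at different points of the order. Elane, a member of the ordering list and a selection gene, stood at 252, 2232, 6117 and 12304 CPM. Cebpe stood at 12.9, 86.7, 144 and 221 CPM and Gfi1, the repressor that works with it in granulocytes, at 17.6, 26.8, 31.2 and 84.4 CPM. Cebpe was thus well above its bin 1 level from bin 2 on, and Gfi1 was highest in bin 4. Cebpe, Cebpa, S100a8 and S100a9 are selection genes too, so a cell without them had to meet the rule on other genes. Cebpa stood at 99.2, 118, 75.02 and 82.8 CPM, with no such order. Hp stood at 46.4, 168, 307 and 546 CPM and Ly6c2 at 114, 416, 964 and 1277 CPM, so both were higher in each later bin. S100a8 and S100a9, neighbours on chr3 (chr3:90668978-90670035, + strand, and chr3:90692632-90695721, - strand, GENCODE M21 on mm10), were found at the end of the order: S100a8 had 0, 0, 48.7 and 2442 CPM and S100a9 had 0, 0, 0 and 1334 CPM. S100a8 was found in 43 of the 60 cells of bin 4 and S100a9 in 25. Most of this RNA lay in 1 sort. The 27 Flt3+ HSA+ cells, 21 of them in bin 4, held 5233 of all 6517 S100a8 UMIs and 3351 of all 3495 S100a9 UMIs. The 102 Flt3- Ly6d- HSA- cells, 11 of them in bin 4, held 12 and 0. Of the S100a8 UMIs in bin 3, 71.7% came from 1 cell. Fcnb, the granule lectin ficolin B, stood at 0, 1.12, 5.68 and 102 CPM and Pglyrp1, a bactericidal granule protein, at 5.28, 8.94, 23.5 and 223 CPM. The monocyte-branch factor Irf8 stood at 254, 284, 288 and 111 CPM, and Ms4a6c, a monocyte gene, at 365, 385, 312 and 90.5 CPM, so both were lowest in bin 4.

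**Figure D2:**
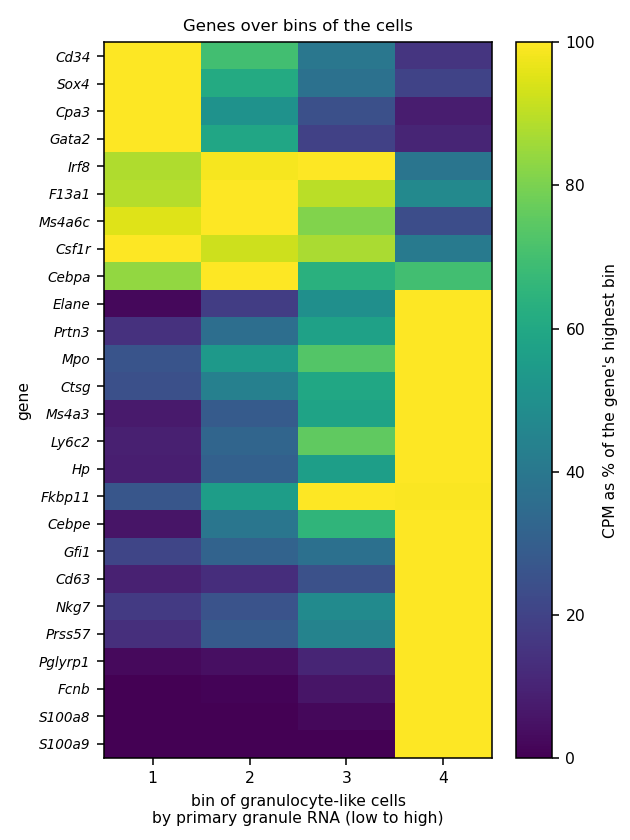
Stage genes over 4 bins of granulocyte-like cells, ordered from low to high primary granule RNA (x axis). Colour gives each gene's CPM as a percent of its own highest bin: Cd34 and Cpa3 are brightest in bin 1 (335 and 366 CPM), and Cebpe, S100a8 and S100a9 in bin 4 (221, 2442 and 1334 CPM).

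Some late neutrophil genes were close to absent, although the lists that hold them were not. The mature neutrophil list, which includes the selection genes S100a8, S100a9 and Csf3r, summed to 1611 CPM against 46.2 CPM in the other cells. The secondary and tertiary granule list summed to 508 against 5.04 CPM. In bin 4 these lists reached 4391 and 1051 CPM. Over all 241 cells, Camp, the cathelicidin gene, had 9 UMIs in 5 cells, Ltf, lactoferrin, and Ngp, neutrophilic granule protein, had 2 UMIs in 1 cell each, Mmp8 had 6 UMIs in 5 cells and Mmp9 had 1 UMI. Ly6g, the surface antigen of mouse neutrophils, Retnlg, Fpr1 and Stfa2l1 were at 0. Lcn2, lipocalin-2, had 218 UMIs in 83 cells. The cells thus carried primary granule RNA and, at one end, S100a8 and S100a9, with most UMIs of both in the Flt3+ HSA+ cells. Camp, Ltf, Ngp, Mmp8, Mmp9, Ly6g, Retnlg, Fpr1 and Stfa2l1 had few or no UMIs at this depth. Cxcr2, a chemokine receptor of mature neutrophils, had 112 UMIs in 80 cells but was higher at the other end of the order, at 17.6, 26.3, 8.92 and 4.96 CPM in bins 1 to 4.

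Irf8 and Cebpe, which belong to the monocyte and the granulocyte branch, were more often found apart than together at equal depth. With every cell thinned to 3000 UMIs, 82 cells had Irf8 alone, 56 had Cebpe alone, 9 had both and 94 had neither; the rank correlation was -0.30. At full depth 90 had Irf8 alone, 56 Cebpe alone, 82 both and 13 neither, with a correlation of -0.49. F13a1, coagulation factor XIII A of monocytes, and Fcnb shared no cell at 3000 UMIs, where 30 cells had F13a1 alone, 10 had Fcnb alone and 201 had neither. With so few cells holding either gene, the lack of shared cells says little. At full depth 19 cells had both, 84 F13a1 alone, 15 Fcnb alone and 123 neither, with a correlation of 0.10, so the pair was not found apart there. Other pairs examined at full depth had correlations of 0.0004 (F13a1 and S100a8) and -0.04 (Csf1r and Csf3r). Those of Ly86 and F13a1 with Pglyrp1 were -0.20 each, and that of Cpa3 with S100a8 was -0.23.

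Clustering of the 241 cells gave 7 clusters that followed the same axes. The top 10 genes of every cluster over the cells outside the class held 4 to 6 granulocyte markers and at most 2 monocyte markers. Apart from Hp, Slpi and Lcn2, those granulocyte markers are selection genes, so the count in part describes the choice of cells. Cluster genes were chosen by the clustering and are given without a test. Cluster 1 (41 cells) was led by Cpa3, at 639 CPM against 85.5 CPM in the other granulocyte-like cells, with Rgs1, Ikzf2, Spns2, Angpt1, Ctla2a, Rab37 and Pdgfrb. Its Elane level was 471 CPM and its Cd34 level 305 CPM, and it had a median of 21799 UMIs per cell. Cluster 2 (29 cells) had histone genes among its leading genes, such as Hist1h1b at 888 against 252 CPM, and its G2/M list summed to 3174 CPM. Mcpt8, a basophil protease, ranked first there at 231 against 49.1 CPM, but 46.4% of its UMIs came from 1 cell, without which it was at 129 CPM and a ratio of 2.64, under that of the histone genes. Cluster 3 (33 cells), with Xylt1, Ung, Muc13 and Ifitm3 among its leading genes, had 3091 CPM of Elane and the lowest G2/M sum of the 7, at 473 CPM.

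Clusters 4 and 5 were the ones rich in monocyte genes. Cluster 4 (38 cells) had Irf8 at 484 against 183 CPM and F13a1 at 143 against 52.1 CPM, and cluster 5 (28 cells) had Irf8 at 611 against 167 CPM and F13a1 at 211 against 42.5 CPM. Ccr2, the receptor that monocytes use to leave the marrow, stood at 102 and 137 CPM in the pair and at 13.4 to 53.6 CPM in the other clusters. Their G2/M sums were apart, at 999 and 3201 CPM. The monocyte list summed to 2433 against 1535 CPM in cluster 4 and to 3297 against 1412 CPM in cluster 5. In cluster 5, Cebpe was at 16.6 against 147 CPM, with a UMI in 8 of 28 cells, and Gfi1 at 11.3 against 48.8 CPM. Both clusters held Elane, at 4293 and 6007 CPM, but it is a selection gene that the rule favoured. The granulocyte-like label thus covers cells that lean to the monocyte branch, and neither cluster is given a monocyte name.

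Clusters 6 and 7 held the granulocyte end, with the highest Elane (11077 and 10189.9 CPM) and Cebpe (234 and 271 CPM) levels. Cluster 6 (41 cells) was led by S100a8, at 2575 against 141 CPM, and Pglyrp1, at 226 against 27.5 CPM, with Wfdc21, Syne1, Chst13, Hsd11b1, Chd7 and Gca. Cluster 7 (31 cells) had Gstm1 at 614 against 229 CPM and Cd63, a granule membrane tetraspanin, at 668 against 262 CPM. Their G2/M sums were 2891 and 817 CPM. Irf8 stood at 26.2 and 87.4 CPM in these clusters. Cell cycle RNA thus divided the clusters along a second axis, with clusters 2, 5 and 6 high and clusters 1, 3, 4 and 7 low. The clusters depend on the method: without cell cycle genes, with Ward linkage and on thinned cells the adjusted Rand indices were 0.69, 0.36 and 0.40. Of the 41 cells of cluster 6, at most 23, 22 and 19 stayed together, in clusters of 23, 60 and 38 cells. Values within clusters thus hold for the 7 clusters given here only.

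**Figure D3:**
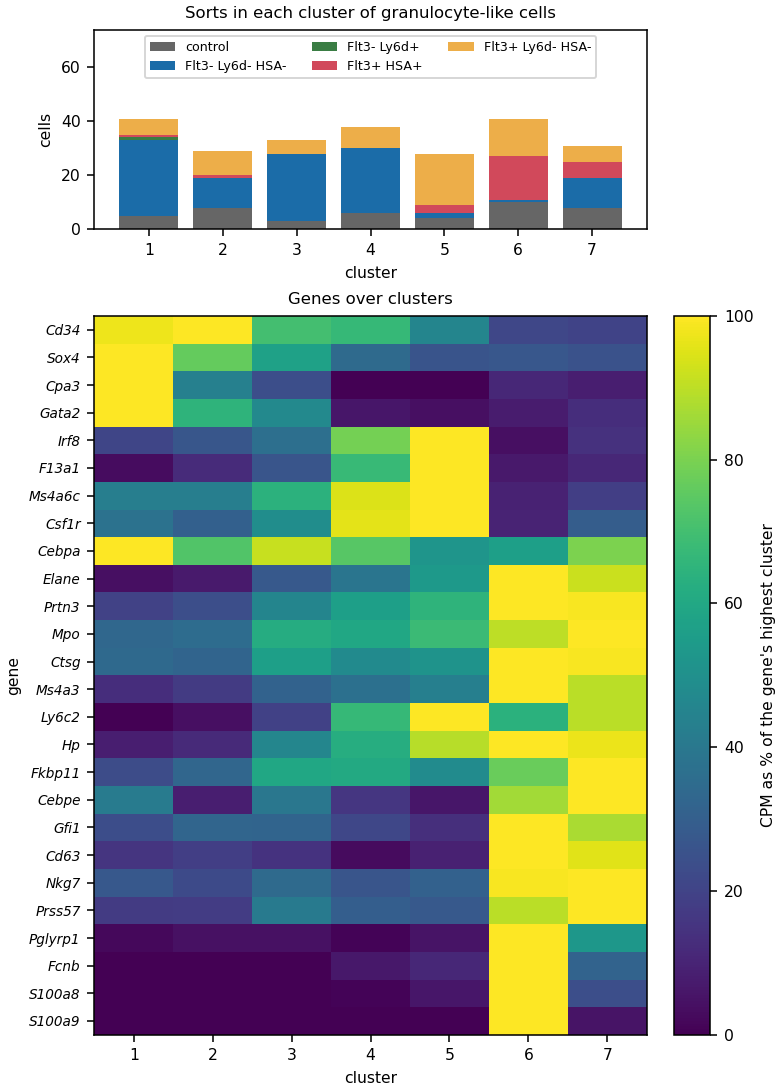
Top, number of cells from each sort in the 7 clusters of granulocyte-like cells (stacked bars); bottom, each gene's CPM as a percent of its own highest cluster (colour). Cluster 6 drew 16 of its 41 cells from Flt3+ HSA+ and cluster 1 drew 28 of its 41 from Flt3- Ly6d- HSA-; Irf8 is brightest in cluster 5 (611 CPM) and S100a8 in cluster 6 (2575 CPM).

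The sorts filled this order differently. Of the 27 Flt3+ HSA+ cells, 21 lay in bin 4 of primary granule RNA and 2, 1 and 3 in bins 1 to 3. The 102 Flt3- Ly6d- HSA- cells lay 30, 36, 25 and 11 over the bins, the 44 control cells 8, 10, 15 and 11, and the 67 Flt3+ Ly6d- HSA- cells 20, 13, 17 and 17. Thus the HSA+ cells sat at the granule-rich end and the Flt3- Ly6d- HSA- cells leaned to the other. Flt3- Ly6d- HSA- gave 28 of the 41 cells of cluster 1, 25 of the 33 of cluster 3 and 24 of the 38 of cluster 4, but 1 of the 41 of cluster 6 and 2 of the 28 of cluster 5. It also gave 11 of the 29 cells of cluster 2 and 11 of the 31 of cluster 7. No other sort gave as many to either, but this sort held 42.3% of all granulocyte-like cells, and both shares lay below that. The granulocyte end was thus not without Flt3- Ly6d- HSA- cells, but held fewer of them than their share of all granulocyte-like cells. Flt3+ Ly6d- HSA- gave 19 of the 28 cells of cluster 5. Their median UMIs were 40804 in the control, 29330.0 in Flt3- Ly6d- HSA-, 47263 in Flt3+ HSA+ and 36559 in Flt3+ Ly6d- HSA- cells, and the part of depth in the order of the sorts was not tested.

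Per cell, the primary granule list ran from 44.2 through a median of 244 to 662 UMIs per 10000 in the control and from 44.2 through 185 to 778 in Flt3- Ly6d- HSA- cells. It ran from 70.9 through 524 to 727 in Flt3+ HSA+ cells and from 33.8 through 237 to 629 in Flt3+ Ly6d- HSA- cells. The ranges overlapped widely, and the HSA+ median stood apart. The mature neutrophil list had medians of 3.23, 2.85, 14.1 and 4.40 in the same order of sorts, with a highest HSA+ cell at 337. At 3000 UMIs, 31.8%, 36.3%, 77.8% and 38.8% of cells had 2 or more UMIs of that list, against 0.845% of the cells outside the class. S100a8, S100a9 and Csf3r of that list are selection genes. The rule thus favoured the contrast with cells outside the class, and nothing is read from it. The monocyte list had medians of 9.68, 8.83, 17.2 and 16.5 per 10000, so its sum was higher in both Flt3+ sorts. Ly6c2 alone, also a gene of neutrophil precursors, had medians of 3.31, 0.901, 12.6 and 7.02, so the HSA+ sum leaned on it. The G2/M list had medians of 15.01, 5.88, 19.5 and 18.2 per 10000, lowest in Flt3- Ly6d- HSA- cells. The S phase list hardly differed, at medians of 26.4, 25.6, 27.8 and 29.5.

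**Figure D4:**
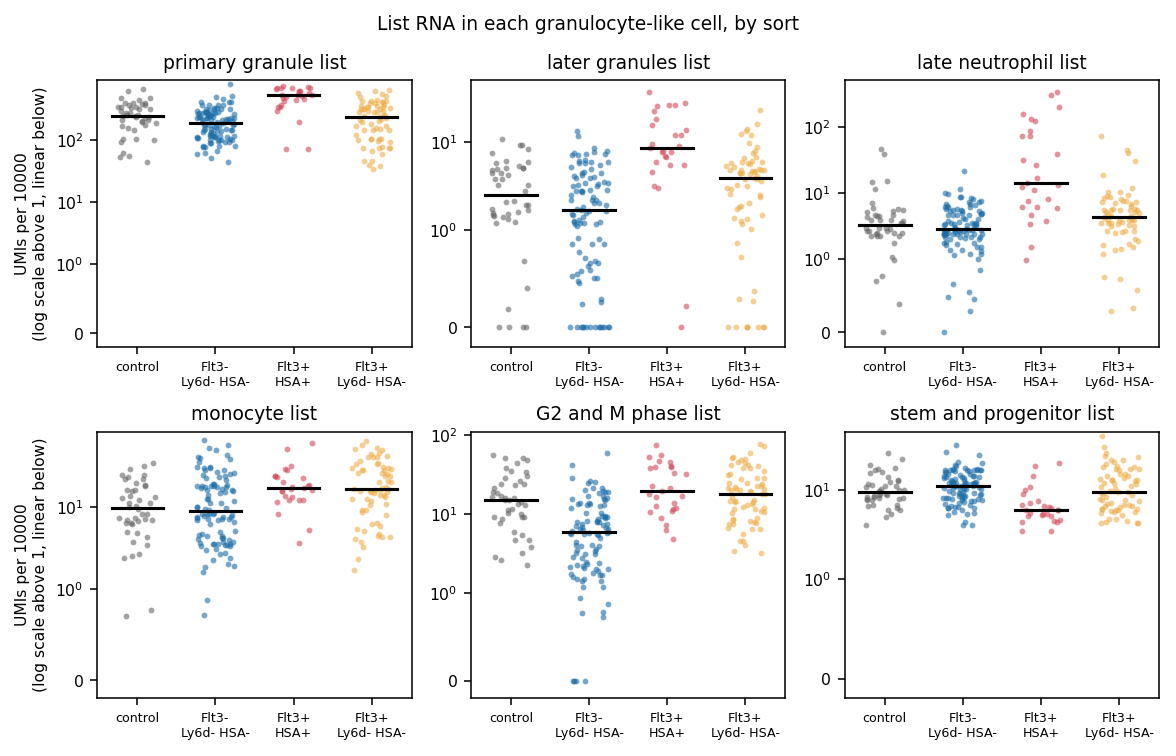
Summed RNA of 6 lists in single granulocyte-like cells, by sort, in UMIs per 10000 (y axis, log scale above 1). Each point is 1 cell and each bar the median; the primary granule median was 524 in Flt3+ HSA+ cells and 185 to 244 in the 3 other sorts, and the G2/M median was 5.88 in Flt3- Ly6d- HSA- cells.

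Between the granulocyte-like cells of the Flt3- Ly6d- HSA- and Flt3+ Ly6d- HSA- sorts, 28 of 5311 tested genes were at least 2-fold higher in Flt3- cells (0.527%) and 79 at least 2-fold lower (1.49%), with a median log2 ratio of -0.00. A gene had to reach 20 CPM and 20% of the cells on its higher side. Cpa3 (chr3:20215620-20242181, - strand) was 12.2-fold higher (9.55 to 15.9), at 324 CPM in 59 of 102 Flt3- cells against 26.4 CPM in 15 of 67 Flt3+ cells. Apoe, apolipoprotein E, was at 74.5 against 10.1 CPM (7.37-fold, 4.89 to 11.5), the Ikaros family factor Ikzf2 at 58.4 against 12.4 CPM (4.69-fold) and Gata2, a stem and mast cell factor, at 21.7 against 6.22 CPM (3.48-fold). Spns2, a sphingosine phosphate exporter, was 5.59-fold higher, Stx3 3.65-fold, Rab37 2.97-fold, Serpina3g 2.67-fold, Hist1h2bc 2.57-fold and Vamp5 2.50-fold. Of 4 mast cell and basophil genes 2 were higher, Cpa3 and Gata2, with a list median of 1.16. Cluster 1 held 605 of the 1257 Cpa3 UMIs of the 241 cells. Within it, Cpa3 was at 846 CPM in 28 Flt3- cells and 35.3 CPM in 6 Flt3+ cells. Within cluster 2 it was at 522 CPM in 11 and 56.8 CPM in 9 cells. The gap in Cpa3 was thus present within both clusters. Serpina3g and the histone genes belong to families of near-identical copies.

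Genes of mitosis were lower in the Flt3- cells. Of 20 tested G2/M genes, 19 passed as lower (median -1.38), while 0 of 20 S phase genes were (median -0.06). Plk1, the polo kinase, stood at 9.09 against 54.8 CPM (6.03-fold lower), Ube2c, a ubiquitin-conjugating enzyme of mitotic exit, at 45.5 against 249.7 CPM (5.49-fold), Mki67 at 67.5 against 169 CPM (2.51-fold) and Top2a, topoisomerase II alpha, at 154 against 356 CPM (2.31-fold). Cenpl (5.48-fold), Ccnf (4.93-fold), Esco2 (4.93-fold), Nusap1 (4.61-fold), Spc25 (3.56-fold) and Hist1h3c (3.40-fold) were also among the 10 largest. The G2/M list had a median of 2.80 per 10000 in 28 Flt3- cells and 10.4 in 6 Flt3+ cells of cluster 1, and of 2.46 in 25 and 11.5 in 5 cells of cluster 3. The medians were closer in cluster 2, at 21.03 in 11 Flt3- and 28.5 in 9 Flt3+ cells, and in cluster 7, at 5.50 in 11 and 6.96 in 6 cells. In cluster 4 they were 7.97 in 24 Flt3- and 7.82 in 8 Flt3+ cells, so the size of the gap differed between clusters. S100a8 was 73.2-fold lower (41.7 to 142), at 4.20 CPM in 4 of 102 Flt3- cells against 307 CPM in 19 of 67 Flt3+ cells, and S100a9 had 0 UMIs in Flt3- cells against 40.5 CPM. Clec4a2, a myeloid C-type lectin receptor, was at 8.04 against 49.0 CPM (6.09-fold lower). Lcn2 and Pglyrp1 were 2.39-fold and 2.51-fold lower, and 0 of 10 primary granule genes (median -0.40) and 0 of 10 monocyte genes (median -0.48) passed.

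Flt3+ HSA+ cells stood apart from Flt3+ Ly6d- HSA- cells by neutrophil genes. Of 5355 tested genes, 78 reached 2-fold in favour of HSA+ cells (1.46%) and 75 were lower by as much (1.4%), with a median log2 ratio of -0.05. S100a9 was at 2483 CPM in 17 of 27 HSA+ cells against 40.5 CPM in 5 of 67 HSA- cells (61.4-fold higher, 50.5 to 75.3). Of the HSA- UMIs of S100a9, 85.6% came from 1 cell, so that ratio rests on it: without the cell highest in S100a9 in each sort, the levels were 1921 and 5.96 CPM and the log2 ratio was 8.33. S100a8 was at 3877 CPM in 21 of 27 cells against 307 CPM in 19 of 67 (12.6-fold, 11.7 to 13.6). Both groups held cells without either gene, and the levels rest on those that had it. Fcnb was at 168 against 15.6 CPM (10.8-fold higher), Wfdc21, a secreted protein of myeloid cells, at 186 against 18.3 CPM (10.2-fold), Pglyrp1 at 294 against 51.0 CPM (5.77-fold) and Prom1, prominin 1, at 28.2 against 2.33 CPM (12.1-fold). Slc40a1, the iron exporter ferroportin, was 5.92-fold higher, Ncam1 5.04-fold and G0s2 4.14-fold. Chil3, the chitinase-like protein Ym1, was 7.62-fold higher, but 83.0% of its HSA+ UMIs came from 1 cell, and its log2 ratio was 0.40 without the cells at 2 or more T-cell receptor list UMIs per 10000.

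Of the granule lists, 4 of 10 primary granule genes were higher in HSA+ cells (Cd63 3.11-fold, Prss57 2.19-fold, Elane 2.15-fold and Nkg7 2.01-fold; list median 0.89), as were 4 of 6 secondary and tertiary granule genes (median 1.77) and 3 of 6 mature neutrophil genes (median 1.32). Nkg7 missed 2-fold with 8 or more selection genes (log2 ratio 0.95) and with 6 or more (0.91). Elane was at 12449.7 against 5797 CPM, but with cells of 6 or more selection genes its log2 ratio was 0.98, and Hp, here 2.03-fold higher, was at 0.91, at 0.94 with 8 or more, and at 0.93 without the cells rich in T-cell receptor RNA. Mpo (9761 against 7157 CPM) and Prtn3 (13845 against 7464 CPM) stayed under 2-fold. Of the regulators, Cebpe was 2.58-fold (2.15 to 3.09) and Gfi1 2.60-fold (1.96 to 3.48) higher. Id2, an inhibitor of helix-loop-helix factors, was 2.96-fold higher. Within cluster 6, S100a8 stood at 5532 CPM in 16 HSA+ cells and 662 CPM in 14 Flt3+ HSA- cells, and within cluster 7 at 1519 and 466 CPM in 6 cells each, so the gap lay within clusters too.

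Some progenitor and monocyte genes were lower in the HSA+ cells. Of 9 stem and progenitor genes 3 were lower, Cd34, Cd27 and Sox4 (list median -0.40). Cd27 (2.30-fold) and Sox4 (2.01-fold) were at -0.26 and -0.28 on the log2 scale with 6 or more selection genes. Cd34 was at 48.9 against 180.5 CPM (3.69-fold lower), Irf8 at 117 CPM in 9 of 27 cells against 345 CPM in 55 of 67 (2.94-fold lower), and Ms4a6c at 121 against 318 CPM (2.64-fold). Ctss, cathepsin S, was 2.40-fold lower and Ly86, a partner of a toll-like receptor homologue, 2.32-fold. Of 10 monocyte genes 4 were lower (median -0.83): Ms4a6c, Ctss, Ly86 and Csf1r (2.01-fold), the receptor of macrophage colony stimulating factor. The summed monocyte list per cell was not lower, at the medians given above (17.2 against 16.5 per 10000). Its member Ly6c2 was higher in HSA+ cells, at medians of 12.6 against 7.02. Csf1r missed 2-fold with TMM factors (-0.96), DESeq2 factors (-0.93) and 8 or more selection genes (-0.99). Ifitm1, an interferon-induced membrane protein, was at 25.2 against 160 CPM (6.36-fold lower), Tpm4 5.13-fold, Prdx4 4.39-fold, cyclin D1 (Ccnd1) 4.14-fold, Ccdc88a 4.03-fold, Prr5 3.83-fold, Tcf12 3.57-fold and Acad8 3.36-fold. With 6 or more selection genes, Cd34 was at -0.996, Ctss at -0.46 and Tcf12 at -0.88 on the log2 scale, and 38 genes in place of 75 were lower. No G2/M gene of 20 passed in either direction (median 0.15).

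**Figure D5:**
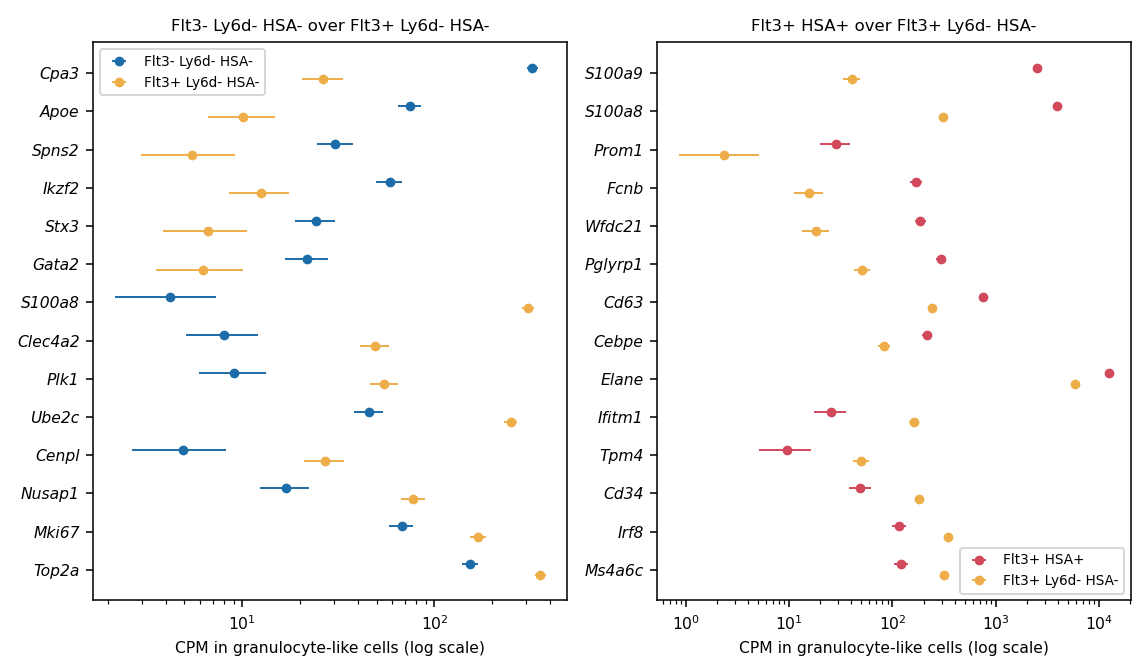
CPM (x axis, log scale) of named genes in granulocyte-like cells of a pair of sorts per panel, with exact 95% Poisson intervals of counting error. S100a8 lies left of its Flt3+ Ly6d- HSA- point in Flt3- Ly6d- HSA- cells (4.20 against 307 CPM) and right of it in Flt3+ HSA+ cells (3877 against 307 CPM).

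In the control sort, few genes separated granulocyte-like cells from the equal-weight mean of the 3 gated sorts with at least 20 of them. Of 5278 tested genes, 3 were at least 2-fold higher in the control (0.0568%) and 23 lower (0.436%). The 3 were Hbb-bt, a beta globin, at 59.1 against 9.50 CPM with 66.7% of it in 1 cell, Mta3 at 60.8 against 29.4 CPM, and Ppic at 23.1 against 11.5 CPM. The calls of Mta3 and Ppic were not stable. Ppic was at log2 ratios of 0.93 to 0.97 with TMM or DESeq2 factors, equal weight per cell, 6 or 8 selection genes, or without the cells rich in T-cell receptor RNA. Mta3 was at 0.72 with equal weight, 0.70 and 0.65 with 8 and 6 genes, and 0.16 without those cells; without the cell highest in the gene in each sort the pair was at 0.81 and 0.97 (Mta3 and Ppic). S100a9 was at 22.5 against 841 CPM (37.3-fold lower), with 70.0% of the control's UMIs in 1 cell, S100a8 at 271 against 1396 CPM (5.14-fold), Fcnb at 6.76 against 61.7 CPM (9.13-fold) and Chil3 at 1.13 against 27.9 CPM (24.8-fold). In these 4 genes most of the gated mean comes from the Flt3+ HSA+ cells. F13a1 was at 22.0 against 74.3 CPM (3.38-fold lower), with each gated sort at 59.3 CPM or more. Lyz2, lysozyme, was 2.08-fold and Cybb 2.22-fold lower, but Lyz2 was at a log2 ratio of -0.95 without the cells rich in T-cell receptor RNA and at -0.91 without the cell highest in it in each sort.

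The gates were read on RNA. Cd24a, the gene of HSA, was at 72.1, 41.3, 158 and 43.6 CPM in granulocyte-like cells of the control, Flt3- Ly6d- HSA-, Flt3+ HSA+ and Flt3+ Ly6d- HSA- sorts, against 211, 110.3, 141 and 84.7 CPM in the other cells. It was thus highest in the HSA+ sort among the granulocyte-like cells, and in clusters 6 and 7 it was at 173 and 194 CPM in HSA+ cells against 55.8 and 54.0 CPM in Flt3+ HSA- cells. Flt3 RNA followed its gate only in part in these cells. It was at 2.25, 4.20, 1.48 and 13.2 CPM, against 18.5, 28.8, 67.5 and 96.4 CPM in the other cells. The Flt3+ Ly6d- HSA- value (9.16 to 18.5) was highest and lay above the Flt3- Ly6d- HSA- value (2.17 to 7.33). The Flt3+ HSA+ value (0.179 to 5.35) did not lie above it. The values of the control and the Flt3+ HSA+ cells rest on 4 and 2 UMIs and do not differ beyond counting error. Kit, the receptor that all 5 sorts selected for, was at 41.1, 45.5, 43.7 and 37.0 CPM against 80.1, 112, 68.7 and 68.1 CPM. Bcl11b had 0 UMIs in the gated granulocyte-like cells and 34 UMIs in 4 control cells, the sort that was not gated on Bcl11b. Whether surface protein followed RNA in these cells was not tested.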

How the data were processed

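Gene expression and hashtags were measured in single thymus cells of 5 sorts, pooled in 1 cDNA and 1 tag library. Per the submitters' processing notes, reads were processed with Cell Ranger 3.0 and mm10. The deposited matrix holds UMI counts, not normalized, for 27998 genes and 8293 barcodes, and the deposited tag table holds counts per hashtag, of reads or of UMIs, which no label states. The authors assigned sorts to barcodes by a rule that no label gives, and all 8293 barcodes were in the tag table; 345 without a sort entered no comparison, and 0 columns of samples went unused. The 14 genes, the lists and the comparisons were chosen with earlier results of these data known.

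UMIs were summed over cells and scaled to 1e+06 (CPM), or given per 10000 UMIs of a cell. A gene was called at a ratio of 2 with at least 20 CPM, and between sorts also with a UMI in 20% of cells, on the higher side. Shares have exact Clopper-Pearson, sums exact Poisson and ratios exact binomial intervals (95%, counting error only). A ratio against 0 UMIs used 3 counts as the floor. Cells were thinned to 3000 UMIs for shares and pairs. Doublets were not called. Clusters came from Leiden (resolution 0.6, 15 components, 1000 genes, 10 neighbours). Genes named were list members, the 15 largest ratios over the sorts each way, the 10 largest between sorts and 8 leading genes per cluster; predicted genes, mitochondrial, ribosomal protein and clone names were not named. Gate genes (Cd24a, Flt3, Kit and Bcl11b) were named beyond this rule. Alternatives were TMM (edgeR 4.0.16) and DESeq2 (1.42.0) factors, no floor, equal weight per cell, 6 or 8 selection genes, thinning, and, chosen after seeing the data, leaving out cells at 2 or more T-cell receptor list UMIs per 10000, or the cell highest in a gene in each sort. Scripts were tested on simulated data. Python 3.11.15, scanpy 1.11.5, scipy 1.17.1 and R 4.3.3 were used, with promoters from RefSeq (GRCm38.p6).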

Additional observations from a re-analysis of the deposited data

Results flagged for a closer look

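A signal outside the compared cells was found among the 345 barcodes to which the authors gave no sort. Of these, 20 met the rule for granulocyte-like cells (5.80%, 95% exact binomial interval 3.58 to 8.81%), above the 0.870% that a count of 0 allows. Their median was 46323 UMIs, and 13 of the 20 had a second hashtag at 20% or more of their hashtag counts. They held a median of 3.67 T-cell receptor list UMIs per 10000 (0 to 29.1), with 14 at 2 or more, against a median of 0 in the 241 assigned granulocyte-like cells and 12.4 in the other assigned cells. A part of doublets in these values was not tested.

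Ung, the uracil DNA glycosylase gene, lay on opposite sides in a pair of sorts. It was 2.55-fold higher in granulocyte-like than in other cells of the Flt3- Ly6d- HSA- sort (108 against 42.3 CPM) and 2.02-fold lower in those of the Flt3+ HSA+ sort (34.8 against 70.4 CPM). The difference between the sorts was not tested.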

How the results depend on the processing

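No paired analysis was possible because each kind of sort was made once and the cells carry no replicate numbers. Thinned to 3000 UMIs, the granulocyte-like share was 0.585% in the control, 3.36% in Flt3- Ly6d- HSA- and 0% in Flt3- Ly6d+. It was 1.57% in Flt3+ Ly6d- HSA- and 1.34% in all. The Flt3+ HSA+ share stayed within its full-depth interval (1.51 to 3.31%). The full-depth gap between Flt3+ Ly6d- HSA- (4.75%) and Flt3+ HSA+ (2.28%) was thus not kept at equal depth. With 8 genes the Flt3- Ly6d+ share was also 0%. Without a floor on CPM, 465 genes were higher and 2223 lower in granulocyte-like cells, 1436 higher and 1243 lower in Flt3- against Flt3+ (Ly6d- HSA-), 929 higher and 2078 lower in Flt3+ HSA+ against Flt3+ Ly6d- HSA-, and 961 higher and 2047 lower in the control against the gated mean. With equal weight per cell, 44 were higher in the first of these comparisons of sorts, 113 lower in the second and 1 higher in the third. With 8 selection genes 0, and with 6 genes 6, were higher in the control, and with 6 genes 38 were lower in Flt3+ HSA+ cells. Notch1, 2.03-fold lower in Flt3+ HSA+ than Flt3+ Ly6d- HSA- cells, turned to a log2 ratio of 0.0927 with 6 genes. The cause of these moves was not tested, apart from the smaller number of UMIs that thinning leaves by construction. Of 121 named ratios, 11 others moved across 2-fold with 6 genes and 10 with 8 genes. The number was 5 with DESeq2 factors, 4 with TMM factors and 2 with equal weight. It was 6 without the cells at 2 or more T-cell receptor list UMIs per 10000 and 3 without the cell highest in the gene in each sort. Without a floor on CPM it was 0 by construction, because that floor does not enter a ratio. The limits are 1 sort of each kind, 27 cells in Flt3+ HSA+, depth that moves with granule RNA, and uncalled doublets.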

Other observations

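Some genes shared with basophils were found in the granulocyte-like cells. Mcpt8, a basophil protease, was at 48.4, 83.6, 107 and 58.0 CPM in granulocyte-like cells of the control, Flt3- Ly6d- HSA-, Flt3+ HSA+ and Flt3+ Ly6d- HSA- sorts, against 6.93, 8.60, 2.84 and 1.45 CPM in the other cells, and so was 6.99-fold to 39.9-fold higher. Of its Flt3+ HSA+ UMIs 80.6% came from 1 cell, without which the level there was 21.5 CPM. Hdc, histidine decarboxylase, which makes histamine in basophils and is also found in myeloid progenitors, was 10.95-fold to 27.7-fold higher. Over the bins of primary granule RNA, from low to high, Hdc had 20.0, 44.7, 62.0 and 118 CPM. Mcpt8 had 110.4, 87.2, 86.0 and 23.7 CPM, but 43.4, 50.9, 68.7 and 22.1 CPM without the cell highest in it in each bin, so its order over bins 1 to 3 rested on single cells. Cpa3 was on both sides, at a ratio of 0.370 in the control and 1.32 in Flt3- Ly6d- HSA-, and Prss34, a second basophil protease, had 10 UMIs in all granulocyte-like cells.

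Beside 6.46% of all tested genes, 2 of 6 immediate early genes were at least 2-fold lower in granulocyte-like cells in all 4 sorts: Jun (2.02-fold to 3.71-fold lower) and Junb (2.48-fold to 3.29-fold lower). Of 6 adhesion and homing genes 1 was lower, a share that says little beside that background: Itgb7, the beta 7 integrin subunit of gut homing, at 5.07, 7.69, 2.96 and 10.9 CPM against 47.4, 85.8, 41.7 and 44.4 CPM in the same order of sorts.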
